A study of Mus musculus with 90 samples.

Results

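The liver response to a 2-h meal was examined in the lean mice of a diet study, in which 3 fed mice were compared with 3 unfed mice over all measured genes. Of the 24312 genes with a symbol in the deposited expression table, 11434 reached a mean of 0.5 RPKM (reads per kilobase of transcript, scaled to the mapped reads of the library) over the 12 libraries of the diet study and were tested. The lean mice were wild-type C57BL/6 mice (C57BL/6N males in the study's methods) that ate chow freely for 10 weeks and were then trained for 4 days to night-restricted feeding, in which food was present only in the dark. Lights went on at zeitgeber time (ZT) 0 and off at ZT12. The fed group (ZT14-fed) received food at ZT12 and the unfed group (ZT14-unfed) did not, and both were euthanized at ZT14. Each library was made from poly(A)-enriched RNA of the liver of 1 mouse, and the study's methods give an age of 5 weeks at the start of the diet for the high-fat group but no age for the lean mice. Other mice of the series were used for comparison only. These were obese mice of the same study (wild-type C57BL/6, 10 weeks of high-fat diet, then the same feeding training, 3 fed and 3 unfed), vehicle-injected mice (wild-type C57BL/6 on chow given PBS shortly before ZT12, 4 fed and 4 unfed, poly(A)-enriched RNA) and uninjected mice (wild-type C57BL/6 on chow, 2 fed and 2 unfed, ribosome-depleted total RNA). Both of the last groups were 10 weeks old by those methods. No mouse was shared between these experiments.

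Before its first meal of the night a mouse liver exports glucose made by gluconeogenesis and burns fatty acids, under the influence of glucagon and of glucocorticoids, which peak around the onset of activity and act through the glucocorticoid receptor (GR). Food raises insulin, which through AKT keeps the transcription factor FOXO1 out of the nucleus and raises the activity of SREBP1c, the main regulator of fatty acid synthesis. Secretory and ribosomal protein synthesis also rise after a meal, and with them the load of newly made proteins on the chaperones of the endoplasmic reticulum (ER). The comparison asks which liver transcripts change within this short window when food is the only difference between the groups.

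The 6 lean libraries held 16700000 to 26300000 reads, as recovered from the smallest steps in the RPKM values of short RNAs, so that 1 RPKM stood for 16.7 to 26.3 reads per kilobase. Correlations of log2 values were 0.983 to 0.990 within groups and 0.964 to 0.970 between them. The first principal component, 58.2% of the variance, separated the 3 fed from the 3 unfed mice. On the second component, with 14.6%, unfed replicate 1 stood apart from the other unfed mice. That mouse had 4296 RPKM of Scd1, the stearoyl-CoA desaturase, against 1529 and 1299 RPKM in the other unfed mice. The hepatocyte markers summed to 57000 to 65600 RPKM in unfed and 58200 to 61700 RPKM in fed mice, and 0 of 7 were called in either direction (limma, 0 at an unadjusted p under 0.05). Sinusoidal endothelial markers summed to 70.3 to 84.7 RPKM in unfed and 50.1 to 57.5 RPKM in fed mice, and Kupffer cell or macrophage markers to 84.5 to 86.5 and 56.8 to 72.5 RPKM. Stellate cell or fibroblast markers summed to 75.8 to 123 RPKM in unfed and 55.7 to 77.6 RPKM in fed mice. Of these, Dcn alone was at 50.6 to 85.4 and 36.7 to 48.2 RPKM. Cholangiocyte markers summed to 10.5 to 12.9 and 13.8 to 20.9 RPKM. Called were 1 of 7 endothelial (Stab2, lower), 0 of 9 Kupffer, 0 of 8 stellate and 0 of 4 cholangiocyte markers (limma). At an unadjusted p under 0.05, 6 endothelial and 2 stellate markers were lower, 1 cholangiocyte marker was higher and 0 Kupffer markers passed. In whole liver, fewer cells of a type and less RNA per cell cannot be told apart.

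Feeding changed 1169 genes at an adjusted p under 0.01 (limma on log2(RPKM + 0.5), Benjamini-Hochberg over all genes tested). Of these, 800 were higher in fed mice (7.00% of the genes tested) and 369 were lower (3.23%). The 3 fed and 3 unfed mice did not overlap in any of the 800 or the 369, while over all genes tested every fed mouse was above every unfed mouse in 29.0% and below in 14.3%. With 3 mice against 3, an exact permutation test of a single gene cannot go below a two-sided p of 0.10, so the calls rest on the spread shared over genes, and they measure the spread between single mice. The share of calls that were higher depended on the scaling. It was 68.4% with RPKM as deposited, 49.6% when libraries were scaled by the median ratio of their genes (474 higher, 481 lower) and 48.6% after quantile normalization. The median log2 fold change over all genes was 0.083 as deposited and 0.005 after median-ratio scaling. All 369 lower calls and 474 of the 800 higher calls were also made after median-ratio scaling, and none changed sign.

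Most changes were small. The median log2 fold change was 0.677 among genes called higher and -0.80 among genes called lower. A change of at least 2-fold was measured for 139 genes that rose and 131 that fell, and of at least 4-fold for 19 and 28. The 50 most abundant genes of the unfed liver held 2 genes called lower, Pck1 and Tat, and no gene called higher, and their median log2 fold change was 0.059.

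**Figure D1:**
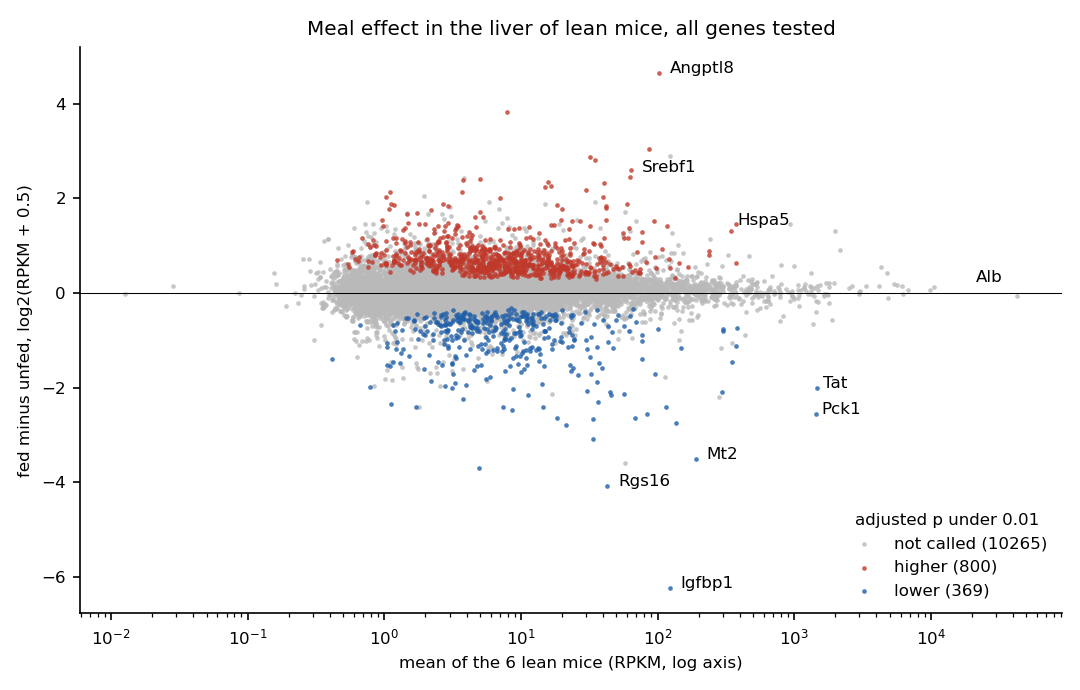
Each point is 1 of the 11434 genes tested, with the mean RPKM of the 6 lean mice on a log axis and the fed minus unfed difference in log2(RPKM + 0.5). Red and blue points are the 800 genes called higher and the 369 called lower at an adjusted p under 0.01, and the largest changes reached 4.65 (Angptl8) and -6.22 (Igfbp1), while Alb, the most abundant transcript named, stayed near 0.

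The largest rise was that of Angptl8, a secreted inhibitor of lipoprotein lipase that follows insulin. Its level was 8.44, 6.69 and 6.31 RPKM in the unfed mice and 182, 142 and 268 RPKM in the fed mice, a log2 fold change of 4.65 ± 0.25 (SE, adjusted p = 1.11e-05, limma). The lowest fed mouse was far above the highest unfed mouse. Srebf1, the gene of SREBP1c, went from 14.2, 21.7 and 17.5 RPKM to 124, 109 and 94.8 RPKM (2.60 ± 0.27, adjusted p = 0.0003, limma). Mid1ip1, whose protein stimulates acetyl-CoA carboxylase, was at 8.32, 6.93 and 6.77 RPKM in unfed and at 57.0, 48.9 and 65.1 RPKM in fed mice (2.87 ± 0.26, adjusted p = 0.000181, limma). Both lipogenic genes were at least 4-fold higher in each fed mouse than in any unfed mouse.

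Transcriptional regulators and a stress gene followed. Id3, an inhibitor of helix-loop-helix factors, was measured at 21.9, 20.1 and 16.0 RPKM in unfed and at 106, 113 and 103 RPKM in fed mice (log2 fold change 2.45). Gadd45a, a stress-inducible gene, stood at 1.48, 1.46 and 0.774 RPKM before and 11.4, 7.56 and 7.32 RPKM after food (2.42), the opposite direction from its relative Gadd45g. Rcan1, an inhibitor of calcineurin, rose from 10.1, 12.1 and 9.58 RPKM to 47.9, 44.8 and 56.3 RPKM (2.18). All 3 genes were called without overlap. The other named rises were Nrep (2.82), Clic3 (2.38), the ER protein gene Sdf2l1 (2.36), the acetoacetyl-CoA synthetase Aacs (2.33), the arrestin-domain gene Arrdc3 (2.27), Hdhd3 (2.25) and Prok1 (2.14). Prok1 was at 0 RPKM in 2 of 3 unfed mice and from 0.755 to 3.47 RPKM in fed mice, so that its level was low throughout. The miRNA gene Mir6921 was also called (3.83), with 0, 6 and 0 reads in unfed and 24, 24 and 23 reads in fed mice. The call was not made with the lean libraries alone (adjusted p = 0.0131, limma), nor without 1 of them in 5 of 6 fits. In poly(A)-enriched libraries such reads can come from a longer host transcript.

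The largest fall was that of Igfbp1, the insulin-repressed binding protein of insulin-like growth factors. It was measured at 246, 222 and 259 RPKM in unfed and at 1.39, 4.3 and 3.26 RPKM in fed mice, a log2 fold change of -6.22 ± 0.42 (adjusted p = 6.25e-05, limma). The fed and unfed mice lay far apart. Rgs16, a regulator of G-protein signaling, was at 146, 40.1 and 58.7 RPKM without and at 6.55, 2.50 and 3.07 RPKM with food (-4.06). Unfed replicate 1 had the highest Rgs16 level, and the groups did not overlap. Ppp1r3g, a glycogen-targeting subunit of protein phosphatase 1, was at 4.65, 12.7 and 11.3 RPKM in unfed and at 0.046, 0.082 and 0.651 RPKM in fed mice (-3.70). Ddit4, which restrains mTORC1, fell from 76.4, 43.4 and 62.5 RPKM to 4.95, 5.37 and 10.6 RPKM (-3.07).

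Several further falls concerned enzymes of lipid and phosphate metabolism. Lpin1 and Lpin2 encode lipins, phosphatidate phosphatases that also act as transcriptional coregulators. Lpin1 was at 232, 218 and 258 RPKM in unfed and 56.0, 38.3 and 19 RPKM in fed mice (-2.75), and Lpin2 at 131, 150 and 152 against 24.4, 29.4 and 19.5 RPKM (-2.55). Ip6k2, an inositol hexakisphosphate kinase, was at 33.5, 29.0 and 33.3 RPKM without and at 4.13, 5.85 and 4.26 RPKM with food (-2.64). In all 3 genes the unfed mice lay close together and clear of the fed mice. The remaining named falls were Trp53inp1 (-2.78), Gadd45g (-2.67), Tcp11l2 (-2.42), the cationic amino acid transporter Slc7a2 (-2.41) and genes of the gluconeogenesis and GR target lists described below.

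**Figure D2:**
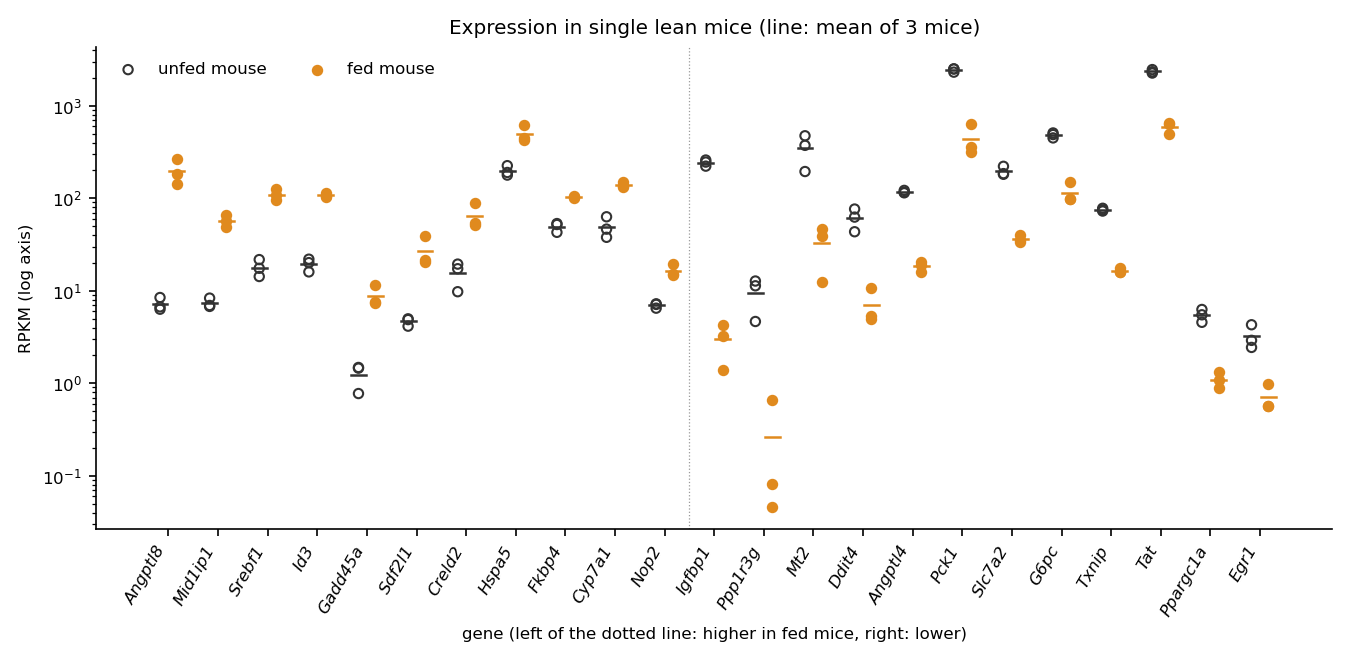
RPKM on a log axis in each of the 3 unfed (open circles) and 3 fed (filled circles) lean mice for 23 genes, with a line at each group mean. Genes left of the dotted line were higher and genes right of it lower in fed mice, and in all 23 the circles of the groups do not overlap.

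The counts of each gene list stand beside the shares over all genes tested, 7.00% called higher and 3.23% called lower. Every fed mouse was above every unfed mouse in 29.0% of all genes and below in 14.3%. Gluconeogenesis was represented by 19 tested genes, of which 0 were called higher and 3 lower. Pck1, phosphoenolpyruvate carboxykinase, was at 2495, 2498 and 2304 RPKM in unfed and 313, 637 and 356 RPKM in fed mice (log2 fold change -2.55 ± 0.26, adjusted p = 0.000299, limma). G6pc, glucose-6-phosphatase, was at 487, 448 and 507 RPKM without and at 98.6, 150 and 97.1 RPKM with food (-2.09). Tat, tyrosine aminotransferase, went from 2455, 2328 and 2253 RPKM to 497, 649 and 627 RPKM (-2.00). The groups stayed apart in all 3 genes. The other 16 members did not pass the test, and the list's median was 0.07, beside 0.083 over all genes.

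Among 24 genes of the insulin and FOXO pathway, 9 were lower and 2 higher (Gadd45a and Arrdc3), with a median of -0.79. The falls included Txnip, an inhibitor of glucose uptake, which was at 77.8, 74.8 and 72.6 RPKM in unfed and at 17.6, 15.8 and 15.8 RPKM in fed mice (-2.16). Irs2, the insulin receptor substrate gene, was at 5.08, 4.52 and 5.69 RPKM without and at 1.01, 1.67 and 0.990 RPKM with food (-1.72). The cyclin gene Ccng2 fell by 1.77 on the log2 scale. Of the transcription factors, Foxo1 went from 15.2, 15.4 and 13.4 RPKM to 6.39, 5.13 and 6.45 RPKM (-1.23) and Foxo3 from 13.4, 12.4 and 14.4 RPKM to 4.69, 5.52 and 4.91 RPKM (-1.33). Insr, the insulin receptor gene, was at 16.4 to 16.8 RPKM in unfed and 10.0 to 12.2 RPKM in fed mice (-0.52). These last 3 genes were named after their values were seen.

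Of 26 known glucocorticoid receptor targets, 14 were lower, 0 were higher and 23 had every fed mouse below every unfed mouse. Their median log2 fold change was -1.42, and the members ranged from -3.50 to -0.06. Mt2, a metallothionein, was at 473, 373 and 194 RPKM in unfed and 38.7, 12.3 and 46.7 RPKM in fed mice (-3.50). Its close relative Mt1 had non-overlapping groups as well (649, 444 and 271 against 96.9, 50.1 and 166 RPKM), but an adjusted p of 0.0123 in limma, and reads of such paralogs may be split uncertainly. Angptl4, an inhibitor of lipoprotein lipase active in the unfed state, was at 116, 114 and 121 RPKM without and at 19.1, 20.7 and 16.0 RPKM with food (-2.63). In the study its expression in fed mice was restored by an insulin receptor antagonist and not by the glucocorticoid dexamethasone. Membership of the list is thus no statement of what lowered a gene here. Among the called transcription factors, Zbtb16 changed by -2.47 and, named after their values were seen, Cebpb by -1.88, Klf9 by -1.59 and Cebpd by -1.38. Nfkbia, which restrains NF-kB, changed by -1.13 and Tsc22d3, a glucocorticoid-induced leucine zipper, by -1.02. Tdo2, the most abundant member that was not called, was at 1415 to 1994 RPKM in unfed and 859 to 1185 RPKM in fed mice (adjusted p = 0.0155, limma). Without 1 of the lean libraries the list held 7 to 9 lower calls, with 7 without unfed replicate 1, unfed replicate 2 or fed replicate 3, and 0 higher ones.

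Of 13 tested genes of the glucagon and CREB pathway, both targets and components, 0 were higher and 2 lower. Ppargc1a, the coactivator PGC-1alpha, was at 6.27, 4.56 and 5.49 RPKM in unfed and at 1.09, 0.879 and 1.31 RPKM in fed mice (-1.90), without overlap. Crebbp, a histone acetyltransferase, fell by 0.86. The glucagon receptor gene Gcgr was at 69.9 to 96.5 RPKM without and 87.6 to 108 RPKM with food, and the groups overlapped. Immediate-early genes, which report recent signaling, held 4 lower and 0 higher calls of 18, namely Maff (-1.96), Egr1 (-1.61), Btg2 (-1.08) and Zfp36 (-1.04). Egr1 was at 4.29, 2.91 and 2.44 RPKM in unfed and at 0.566, 0.985 and 0.561 RPKM in fed mice.

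Among 25 genes of fatty acid synthesis and esterification, 3 were higher (Mid1ip1, Srebf1 and Aacs), 1 was lower (Lpin1), and the median was 0.27. Over all genes 7.00% were called higher and 3.23% lower. Fasn, the fatty acid synthase, was at 43.8, 16.3 and 25.0 RPKM in unfed and at 97.3, 77.8 and 86.0 RPKM in fed mice, a log2 fold change of 1.71 ± 0.62. The groups did not overlap, but the adjusted p was 0.0669 in limma with the obese mice sharing the estimate of the spread, and 0.00841 when the lean libraries were fitted alone. Scd1 was between 1231 and 1512 RPKM in fed mice and overlapped with the unfed mice. In the cholesterol synthesis and uptake list 0 of 24 genes were called in either direction (limma), with 2 higher and 0 lower at an unadjusted p under 0.05. Every fed mouse was above every unfed mouse in 10 of them, where 29.0% of all genes were, and the reverse held in 0, where it held in 14.3% of all genes. With the lean libraries fitted alone, 5 of them were called higher and 0 lower.

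Genes of fatty acid oxidation and ketogenesis showed no call in either direction among 26 (limma), with 5 lower at an unadjusted p under 0.05 and 4 lower calls when the lean libraries were fitted alone. Ppara, the receptor that drives this program, was at 64.2, 69.4 and 65.0 RPKM without and at 38.2, 35.4 and 39.4 RPKM with food, an adjusted p of 0.0113 in limma and of 0.000918 in the lean libraries alone. In the list of PPAR alpha targets, lipid droplet and thioesterase genes, 1 of 23 tested members was higher and 2 were lower. Over all genes 7.00% were called higher and 3.23% lower. Pnpla2, the triglyceride lipase, changed by -0.69 and Angptl4 by -2.63, and Gpd1, which makes glycerol 3-phosphate, by 0.66. After median-ratio scaling Gpd1 was not called (adjusted p = 0.0153, limma). The largest change without a call was that of Cyp4a14, an omega-hydroxylase of fatty acids. It was at 133, 130 and 53.8 RPKM in unfed and at 11, 2.63 and 14.9 RPKM in fed mice, with an adjusted p of 0.024 in limma and near-identical paralogs that can share its reads.

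Of 23 tested ER chaperone and unfolded protein response genes, 11 were higher and 1 lower, 19 had every fed mouse above every unfed mouse, and the median was 0.63. Hspa5, the ER chaperone BiP, was at 178, 190 and 225 RPKM in unfed and at 447, 622 and 421 RPKM in fed mice (1.31 ± 0.23, adjusted p = 0.00279, limma). Creld2, a secreted ER protein, was at 9.76, 17.3 and 19.4 RPKM without and at 53.7, 89.2 and 50.7 RPKM with food (2.03). Sdf2l1, a partner of BiP, was at 4.87, 4.14 and 4.97 RPKM in unfed and 21.6, 38.6 and 20.7 RPKM in fed mice (2.36). Fed replicate 2 was the highest of the 6 mice for all 3 genes. The other members called higher were Manf (1.80), the large chaperone Hyou1 (1.54), the ubiquitin ligase Syvn1 (1.41), the transcription factor Xbp1 (1.29), the disulfide isomerases Pdia4 (1.27) and Pdia3 (0.63), the co-chaperone Dnajb11 (1.04) and calreticulin, Calr (0.80). Herpud1, a component of ER-associated degradation, was the member that fell, from 354, 412 and 365 RPKM to 214, 300 and 173 RPKM (-0.75), a call that was not made when the lean libraries were fitted alone (adjusted p = 0.0273, limma). P4hb, the most abundant, was not called (0.22). Without 1 of the lean libraries 5 to 8 members were called higher, with 5 without fed replicate 2 or unfed replicate 1. After median-ratio scaling 9 were.

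The promoters of these ER genes are shown because they share the ER stress response element, CCAAT followed by 9 bases of any kind and CCACG on either strand. Promoters of 300 bases, from 250 before to 50 after the start, came from RefSeq (GRCm38.p6) and were given for 20 genes of the list with 21 promoters. The element was in promoters of 8 genes (38.1% of 21 promoters), against 0.148% of the 11480 promoters of genes tested. Of the 8 genes, 4 were among the members called higher, and the stretches around the element in these promoters, 5′ to 3′ on the gene's strand with the element in capitals, were as follows.
Hspa5, chr2:34772005-34772063: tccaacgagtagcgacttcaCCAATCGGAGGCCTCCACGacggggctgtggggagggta
Creld2, chr15:88819500-88819558: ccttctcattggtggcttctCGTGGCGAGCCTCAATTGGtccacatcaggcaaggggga
Calr, chr8:84847055-84847113: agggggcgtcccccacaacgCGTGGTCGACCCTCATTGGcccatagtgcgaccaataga
Syvn1, chr19:6046512-6046570: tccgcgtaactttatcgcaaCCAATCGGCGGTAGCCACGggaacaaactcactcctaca
The centre of the element lay 35 to 153 bases before the start in these promoters, on the gene's strand in Hspa5 and Syvn1 and reversed in Creld2 and Calr. The other genes with the element, Hsp90b1, Canx, Pdia6 and Dnajc3, were not called. A match is a description of the sequence and not evidence of binding in these livers.

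Heat shock proteins were 21 tested genes, of which 10 were higher, 0 were lower and 17 had every fed mouse above every unfed mouse. The median was 0.82, and all members were between 0.07 and 1.78. Hsp90aa1, the inducible cytosolic HSP90, was at 6.26, 9.67 and 10.5 RPKM in unfed and at 20.8, 24.4 and 27.3 RPKM in fed mice (1.43). Fkbp4, an HSP90 co-chaperone of steroid receptors, was at 42.8, 52.0 and 53.2 RPKM without and at 103, 105 and 102 RPKM with food (1.07 ± 0.12, adjusted p = 0.000366, limma). The co-chaperones Bag3 (1.11), Dnaja1 (1.06) and Stip1 (0.98) and the HSP70 relative Hspa4l (1.02) rose as well. Hspa8, the abundant constitutive HSP70, was at 74.8 to 109 RPKM in unfed and 156 to 179 RPKM in fed mice, with an adjusted p of 0.0113 (limma). After median-ratio scaling 6 members were called, and without 1 of the lean libraries 2 to 6 were, with 2 without fed replicate 2.

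A pair of promoters illustrates the heat shock element GAANNTTC, the palindrome that heat shock factor 1 recognizes in tandem. It was found in promoters of 9 of the 15 list genes with a promoter sequence (47.6% of 21 promoters) and in 5.98% of all promoters of genes tested. The same element was counted for Hspd1 and Hspe1, whose promoters overlap on opposite strands, and again in both promoters of Hsph1. The share of the list thus counts some stretches more than once. Of these 9 genes 4 were called higher and 5, Hspa1b, Hsph1, Hspb1, Hspd1 and Hspe1, were not called. In the promoters of the called genes Dnaja1 and Fkbp4 (RefSeq, GRCm38.p6, element in capitals, centred 120 and 147 bases before the start) it read as follows.
Dnaja1, chr4:40722324-40722371: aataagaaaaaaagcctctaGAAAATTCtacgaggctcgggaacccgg
Fkbp4, chr6:128438780-128438827: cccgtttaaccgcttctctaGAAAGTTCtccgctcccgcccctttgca

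Of 31 tested genes of ribosome biogenesis 9 were higher and 0 lower, 24 had every fed mouse above every unfed mouse and the median was 0.47. Nop2, an rRNA methyltransferase, was at 6.48, 7.12 and 7.22 RPKM in unfed and at 15, 19.5 and 14.8 RPKM in fed mice (1.18). The box C/D proteins Nop58 (1.05) and Nop56 (0.97), Mybbp1a (0.91) and Bysl (0.80) also rose. After median-ratio scaling 3 of the 31 were called and the median was 0.40, and without 1 of the lean libraries 3 to 6 were called, with 6 without fed replicate 3 and 3 without each of the others. Npm1, the most abundant member, changed by 0.04 as deposited and by -0.05 after that scaling. In contrast, 0 of 30 cytosolic ribosomal protein genes were called in either direction (limma), with 3 higher and 1 lower at an unadjusted p under 0.05 and a median of 0.12. Translation factors and tRNA charging enzymes held 3 higher and 0 lower calls of 23, the synthetases Yars (0.56), Rars (0.48) and Lars (0.40), where 7.00% of all genes were called higher. After median-ratio scaling 1 was called, and Yars (adjusted p = 0.0172, limma) and Lars (0.0201) were not.

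**Figure D3:**
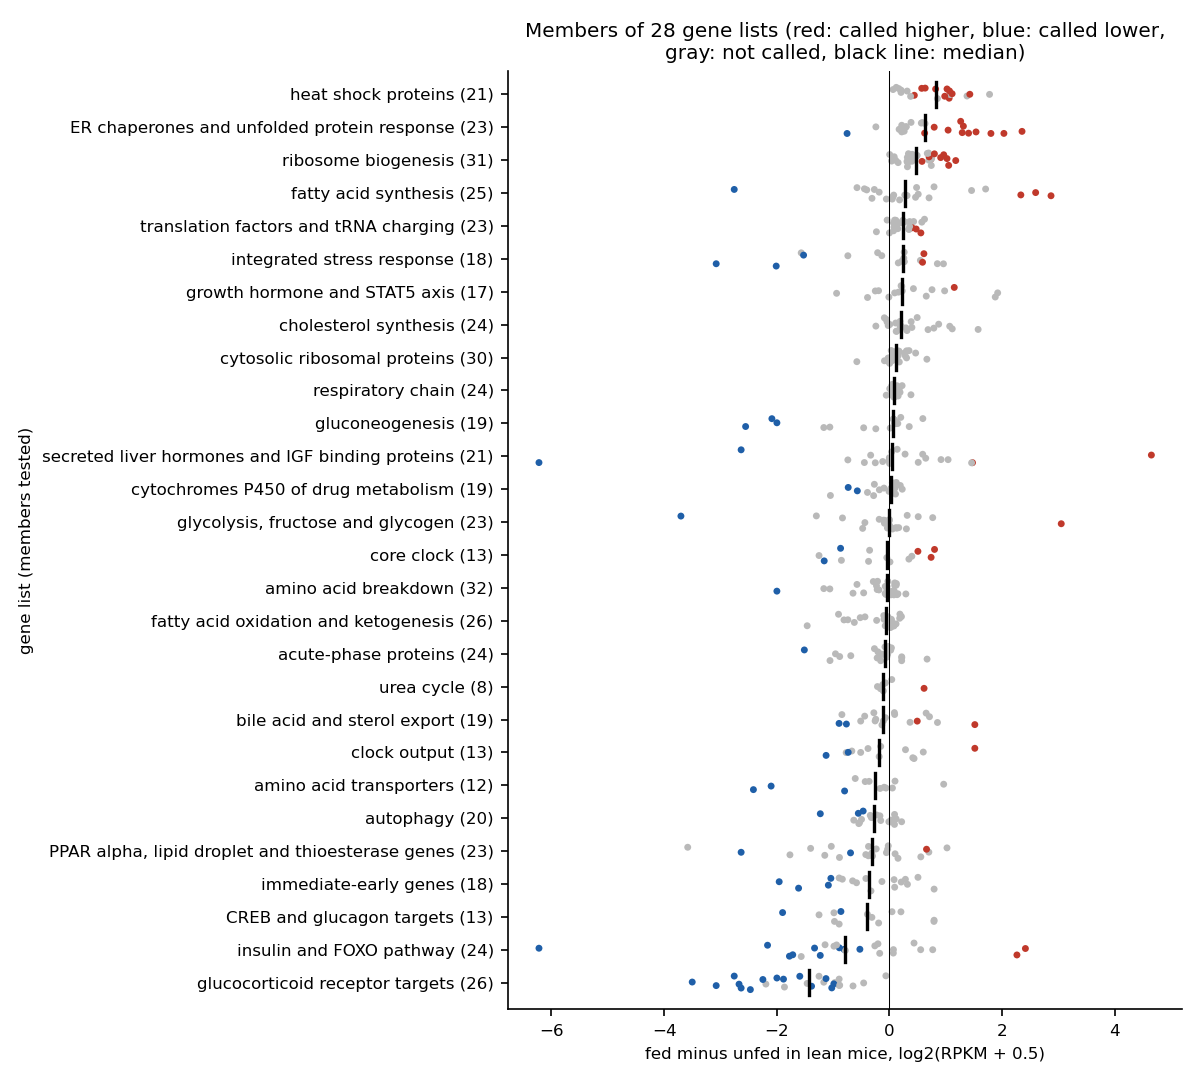
Fed minus unfed difference in log2(RPKM + 0.5) for the tested members of 28 gene lists, ordered by their median (black line), with called genes in red (higher) and blue (lower). Heat shock proteins, ER chaperones and ribosome biogenesis have the highest medians (0.82, 0.63 and 0.47) and glucocorticoid receptor targets the lowest (-1.42), against 0.083 over all genes.

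Of the genes of amino acid metabolism, transporters held most of the calls. Of 12 transporters 3 were lower and 0 higher. Slc7a2 was at 181, 221 and 184 RPKM in unfed and at 40.0, 35.6 and 33.2 RPKM in fed mice, and Slc38a2, a sodium-coupled neutral amino acid transporter, at 53.7, 94.7 and 70.1 against 15.3, 18 and 15.3 RPKM (-2.10). Slc38a4 fell by less (-0.79). Among 32 genes of amino acid breakdown, Tat was the 1 call. Of the 8 urea cycle genes, Nags, which makes the activator of carbamoyl phosphate synthetase, was called higher (0.62) and was not called when the lean libraries were fitted alone. In the integrated stress response, Sesn2 (-2.01), Chac1 (-1.52) and Ddit4 fell, whereas the regulator Atf4 (0.61) and the synthetase Wars (0.59) rose, among 18 genes. Atf4 was not called after median-ratio scaling (adjusted p = 0.0189, limma).

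Core clock genes showed 3 higher and 2 lower calls of 13, where 7.00% and 3.23% of all genes were called. Per2, a light- and feeding-responsive repressor of the clock, was at 6.34, 9.21 and 10.1 RPKM in unfed and at 16.0, 14.7 and 14.4 RPKM in fed mice (0.80). Bhlhe40, another repressor of the clock, rose as well (0.74), and Nr1d2 (-1.16) and Rora (-0.87) fell. The other 8 were not called. With the lean libraries fitted alone, Per2 and Bhlhe40 were not called (adjusted p = 0.0118 and 0.0125, limma), and 1 clock gene was higher and 4 were lower. Among 19 genes of bile acid and sterol export, Cyp7a1, the rate-limiting enzyme of bile acid synthesis, was at 63.0, 37.8 and 46.3 RPKM without and at 136, 131 and 148 RPKM with food (1.52). The bile acid receptor gene Nr1h4 was also higher (0.50), and the canalicular transporters Abcg8 (-0.89) and Abcc2 (-0.76) were lower. After median-ratio scaling Nr1h4 was not called (adjusted p = 0.0123, limma).

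Among secreted liver hormones and binding proteins, Inhba, an activin subunit gene, was higher (1.48) beside Angptl8, and Igfals, the acid-labile subunit of the circulating IGF complex, was the 1 call of 17 growth hormone and STAT5 genes (1.15). Il6ra, the interleukin-6 receptor gene, was the 1 call of 24 acute-phase genes, at 34.5, 34.8 and 32.6 RPKM in unfed and 13.5, 9.88 and 11.7 RPKM in fed mice (-1.51). Among drug-metabolizing genes, Por, the reductase of all microsomal P450 enzymes, fell by 0.73 and the receptor gene Nr1i2 by 0.57. Upp2, a uridine phosphorylase of the clock output list, fell by 1.12. Autophagy genes held 3 lower and 0 higher calls of 20, where 3.23% of all genes were called lower, and 10 had every fed mouse below every unfed mouse. Ulk1, a kinase gene of autophagy initiation, was at 14.1, 18.8 and 17.1 RPKM in unfed and 6.34, 7.86 and 6.26 RPKM in fed mice (-1.23), and the other called members were Pik3c3 (-0.55) and Atg2a (-0.47). With the lean libraries fitted alone 5 members were lower. Respiratory chain genes had 0 calls of 24 (limma, with 3 higher and 0 lower at an unadjusted p under 0.05) and all lay between -0.06 and 0.38.

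A larger share of the lower genes than of all genes lay near GR and FOXO1 peaks, a description for which no test was made. Peaks of both factors had been called in livers of unfed mice of other experiments of the series, and peak positions were compared with gene starts on the mm9 assembly. Among 9985 tested genes with a start site, 48.3% had a GR peak and 51.0% a FOXO1 peak within 50 kb, and 37.1% had both. For the genes called higher (698 with a start site) these shares were 50.1%, 53.4% and 37.1%. For those called lower (322) they were 71.1%, 74.5% and 62.7%. Among the 110 genes that fell by at least 2-fold, a limit set after the values were seen, 92.7% had a GR peak and 91.8% a FOXO1 peak. Among the 120 genes that rose by at least 2-fold the shares were 64.2% and 59.2%. Within 20 kb the shares with a GR peak were 30.1% over all genes, 29.4% for higher calls, 55.0% for lower calls and 80.9% for those falls. The genes called lower had a median of 9 DNase hypersensitive sites within 50 kb against 8 over all genes, and a median level of 7.61 RPKM against 5.77 RPKM. For the 110 falls of at least 2-fold these medians were 10 sites and 10.26 RPKM. The part of sites and level in the differences was not tested.

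**Figure D4:**
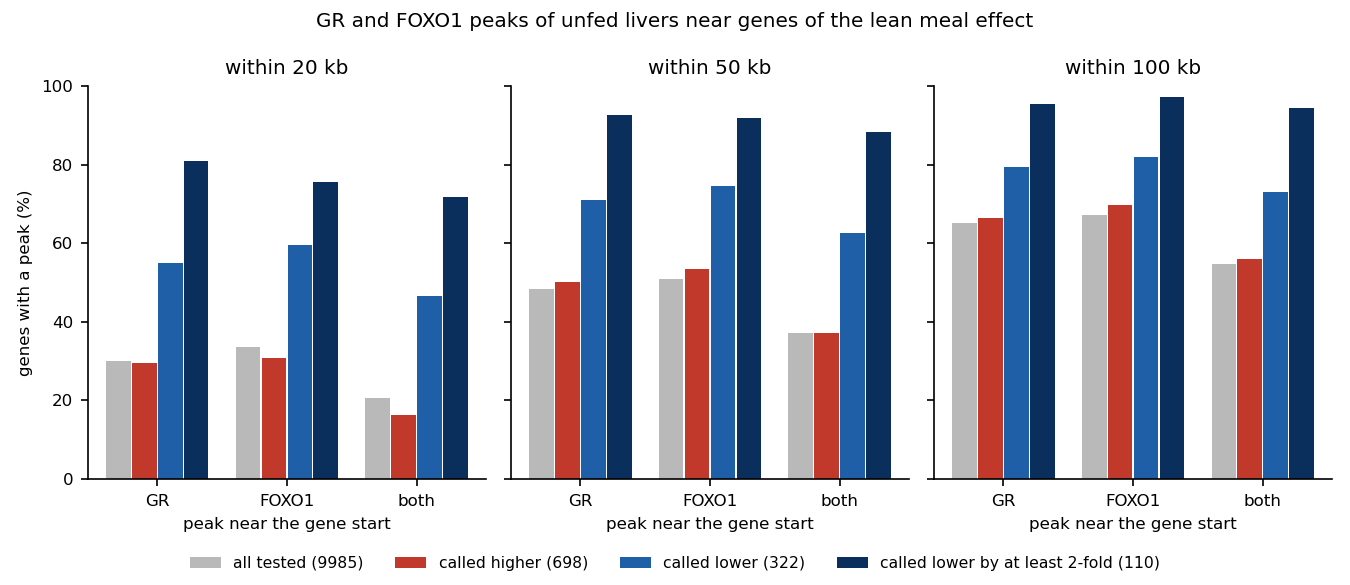
Percentage of genes with a GR peak, a FOXO1 peak or both within 20, 50 and 100 kb of the start site, for all genes tested, genes called higher, genes called lower and genes lowered by at least 2-fold (number of genes in the legend). The bars of genes called higher stay close to those of all genes (50.1% against 48.3% for GR at 50 kb), and those of lower genes are above them at each distance. Genes raised by at least 2-fold are not drawn, and their shares at 50 kb were 64.2% for GR and 59.2% for FOXO1.

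The peak regions next to Igfbp1 and Pck1 are shown since these are the largest fall and the called gene with the highest mean level in unfed mice. The spaced half-sites ACANNNTGT, the core of a GR element, were searched on both strands. A GR peak lay at chr11:7094640-7094819 (mm9, plus strand, intergenic), its centre 3056 bases before the start of Igfbp1, and a FOXO1 peak was centred 3044 bases before it. Another GR peak, at chr2:172978189-172978368 (mm9, plus strand, intergenic), had its centre 270 bases before the start of Pck1. With the spaced half-sites in capitals the sequences were as follows.
Igfbp1 GR peak: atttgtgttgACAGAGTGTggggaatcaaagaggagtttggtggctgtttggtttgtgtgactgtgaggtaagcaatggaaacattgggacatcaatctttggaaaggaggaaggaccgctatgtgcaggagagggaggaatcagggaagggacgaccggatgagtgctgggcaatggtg
Pck1 GR peak: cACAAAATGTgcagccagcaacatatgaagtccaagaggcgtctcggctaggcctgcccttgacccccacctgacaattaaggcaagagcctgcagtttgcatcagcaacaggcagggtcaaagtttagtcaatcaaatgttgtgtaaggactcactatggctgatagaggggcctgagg
In both peaks the match lay near the end and not at the centre. The GR peak nearest Angptl4 held 1 match, and those nearest Tat, Ddit4 and Lpin1 held 0. The spaced half-sites were present in 20.3% of all 10446 GR peaks, in 19.7% of those within 50 kb of a gene called higher and in 28.1% of those within 50 kb of a gene called lower. The FOXO motif TGTTTAC was present in 18.8% of the 8546 FOXO1 peaks, and in 20.3% and 18.4% of those near higher and lower genes. The FOXO1 peaks nearest Igfbp1 and Pck1 held 0 of these motifs.

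The same genes were then read in mice of other experiments. In vehicle-injected mice 792 of the higher genes were tested, of which 757 had the same direction, and 305 of the 369 lower genes did. For counts of direction, here and in the uninjected and obese mice below, the share over all genes is not given. At an adjusted p under 0.05 (limma), 116 of the 792 were called higher there (14.6%) and 0 lower, where 2.55% of all genes tested were called higher. Of the lower genes 44 were called lower (11.9%), where 0.578% of all genes were called lower, and 1, Mrc1, a mannose receptor gene that is not in the marker lists, was called higher. Conversely, 116 of 286 genes higher in vehicle-injected mice (40.6%) and 44 of 65 lower ones (67.7%) were called in lean mice. In the uninjected mice, with total RNA and 2 mice a group, 760 of 771 higher and 302 of 361 lower genes had the same direction. At an adjusted p under 0.01, 32 and 27 of them were called (4.15% and 7.48%, against 0.568% and 0.422% of all genes). Igfbp1, for example, changed by -4.08 in vehicle-injected and by -6.35 in uninjected mice, and Srebf1 by 1.27 and 2.65. Since the genes were chosen by their values in lean mice, a smaller value elsewhere is no measure of a difference, which was tested instead over all genes.

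The meal effect differed between lean and vehicle-injected mice in 91 of 11331 genes at an adjusted p under 0.05 (0.803%). The change in lean mice was more positive in 20 of them and more negative in 71. Of the 91, 59 were lean calls, all with a smaller change in vehicle-injected mice. Choosing lean calls favors that outcome, so this count does not measure which mice responded more. Lpin1 changed by -2.75 in lean and by -0.28 in vehicle-injected mice (difference -2.48 in the joint fit, adjusted p = 0.0273, limma), and Plk3, a kinase induced by stress, by -2.08 and -0.01. Pck1 differed by -1.53, Tat by -0.91, Foxo1 by -0.93 and Srebf1 by 1.33. In the uninjected mice Lpin1 changed by -2.72, Plk3 by -1.85, Pck1 by -2.21, Tat by -1.59, Foxo1 by -0.49 and Srebf1 by 2.65. A large change was thus not particular to the lean mice for most of these genes, and the difference from uninjected mice was not tested. Among the cell markers, 7 also differed between lean and vehicle-injected mice. These were 4 of 7 endothelial markers (Stab2, Kdr, Oit3 and Ptprb) and 3 of 9 macrophage markers (Cd5l, Csf1r and Timd4). The endothelial markers changed by -0.62, -0.47, -0.63 and -0.52 in lean and by 0.36, 0.29, 0.09 and 0.43 in vehicle-injected mice. In the latter they were not called. The macrophage markers were not called in lean mice (-0.29, -0.30 and -0.16), where Cd5l and Timd4 overlapped between groups. In vehicle-injected mice these macrophage markers were called higher (0.74, 0.76 and 0.60, adjusted p under 0.05, limma). In lean mice Stab2 was the 1 marker of the lists called (6.25, 5.42 and 6.24 against 4.18, 3.49 and 3.48 RPKM), with 6 of 7 endothelial markers non-overlapping and 4 of 7 called after median-ratio scaling. Their part in other differences was not tested.

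Against the obese mice, the meal effect differed in 85 of 11434 genes (0.743%, adjusted p under 0.05, limma), of which 73 were lean calls. The change in lean mice was more positive in 37 of the 85 genes and more negative in 48. Of the 73, 71 changed less in obese mice, which their choice as lean calls favors, and 46 had the opposite sign there. The 2 that changed more were Herpud1 and Mir7024, and the latter rests on 1 read in each unfed and 0 reads in each fed lean mouse. In the obese mice themselves, 739 of the 800 higher and 313 of the 369 lower genes had the same direction. There 85 were called higher (10.6%) where 0.962% of all genes were, 19 were called lower (5.15%) where 0.262% were, and 2, Mir7024 and Them4, were called higher.

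**Figure D5:**
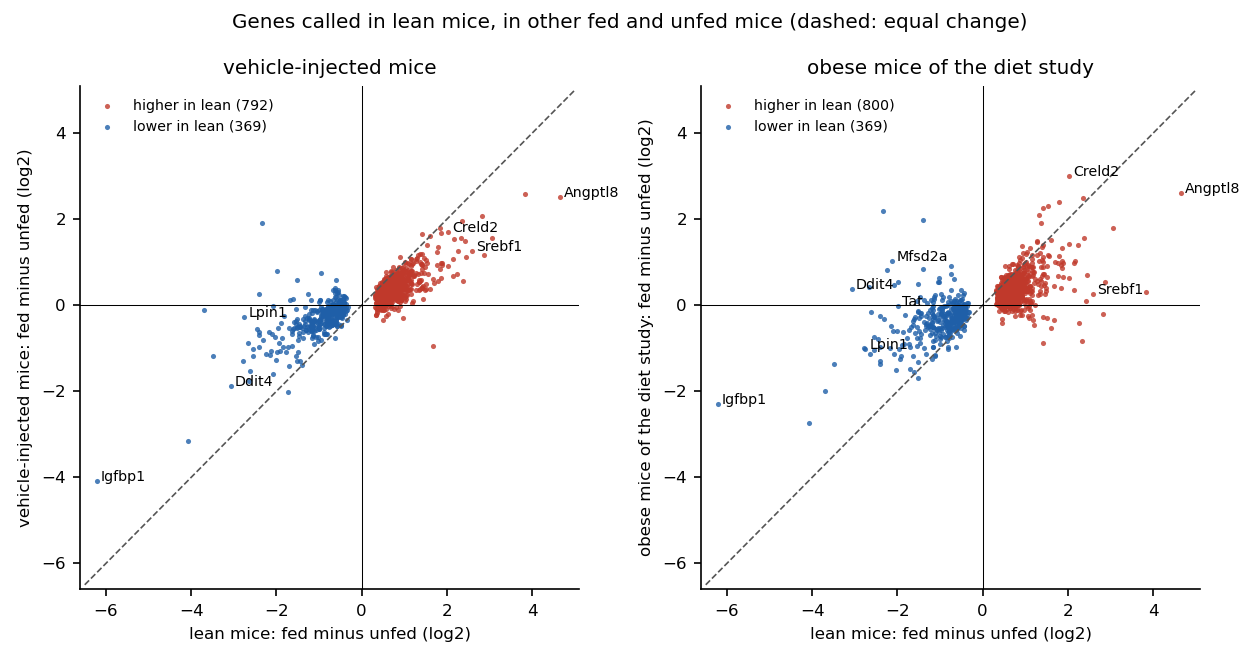
Fed minus unfed log2 difference of the genes called in lean mice, plotted against the same difference in vehicle-injected mice (left) and in obese mice (right), with a dashed line at equal change. Most points lie nearer to 0 on the vertical axis than on the horizontal one, which the choice of genes by their lean values favors. In obese mice Ddit4 and Mfsd2a lie above 0 while Creld2 lies above the dashed line.

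Several genes of the glucocorticoid receptor target list were among these differences. Of the 26 GR targets 7 differed from obese mice, namely Ddit4, Angptl4, Tat, Tsc22d3, Cebpd, Cebpb and Sgk1. Ddit4 changed by -3.07 in lean and by 0.37 in obese mice (difference -3.45 ± 0.48, adjusted p = 0.0104, limma). Tat changed by -2.00 and -0.01 (difference -1.99) and Angptl4 by -2.63 and -0.15 (difference -2.48). The median of the 26 genes was -1.42 in lean, -0.65 in vehicle-injected and -0.09 in obese mice. Igfbp1 differed too, at -6.22 in lean and -2.29 in obese mice, as did the rises of Srebf1 (2.60 and 0.27), Mid1ip1 (2.87 and 0.54), Gadd45a (2.42 and 0.11) and Angptl8 (4.65 and 2.61). Mfsd2a, a transporter of lysophospholipids, was at 122, 86.0 and 71.7 RPKM in unfed and at 21.2, 25.8 and 15.6 RPKM in fed lean mice (-2.13) and changed by 1.03 in obese mice. For the ER chaperones the median was 0.63 in lean, 0.70 in vehicle-injected and 0.90 in obese mice, and of 23 members Herpud1 was the 1 that differed between lean and obese mice (-0.75 and 0.90) and 0 differed between lean and vehicle-injected mice (limma, 1 at an unadjusted p under 0.05), which does not show that the others changed alike.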

How the data were processed

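The authors aligned reads to mm9 with STAR and deposited RPKM per RefSeq transcript for each library, per the labels and the study's methods, with versions and the gene counter not given in the sources used here. Peaks of GR, FOXO1 and DNase hypersensitivity were called by the authors with HOMER and deposited as positions only. The authors' DESeq2 tests were not used. For each gene symbol 1 RefSeq ID was kept, values were transformed to log2(RPKM + 0.5), genes averaging below 0.5 RPKM across the diet study's 12 libraries were dropped, and 4 group means were fitted with limma 3.58.1 (R 4.3.3, variance trend, Benjamini-Hochberg adjustment), so that obese mice shared the estimate of the spread. Fold changes on this scale understate those of low genes. The lean effect was called at an adjusted p under 0.01 and differences between experiments at 0.05. The test was tried on simulated data first. Distances ran from peak centre to start site.

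Members and gene lists were chosen with earlier results of these data known. Named genes were the 15 largest rises and falls with at least 1 RPKM in the higher group and no overlap, up to 6 called members of each list with its most abundant uncalled member, genes the study names, the 5 largest differences each way, and the leading marker of each cell type. Genes outside this rule were chosen after their values were seen: Foxo1, Foxo3, Insr, Cebpb, Klf9, Nfkbia, Cebpd, Sgk1, Tsc22d3, Herpud1, Xbp1, Calr, Pdia3, Pdia4, Dnajb11, Cyp4a14, Mt1, Mrc1, Them4, the markers that differed and those of the closing observations. Some genes that the rule names are not reported here. The labels do not pair mice by replicate number, and the main fit did not use it.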

Additional observations from a re-analysis of the deposited data

Results flagged for a closer look

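The meal effect differed between lean and obese mice in 85 genes and between lean and vehicle-injected mice in 91 genes, by the test of the difference itself (limma, adjusted p under 0.05). Among the genes whose difference passed this test, the largest differences of the log2 fold change, lean minus obese, were 2.33 for Mid1ip1, 2.33 for Srebf1, 2.31 for Gadd45a, 2.30 for Klhdc7a and 2.14 for Rnf186 in the positive direction. In the negative direction they were -4.53 for Mascrna, -3.93 for Igfbp1, -3.45 for Ddit4, -3.37 for Mir7024 and -3.16 for Mfsd2a. Among those that passed it for lean minus vehicle-injected, they were 1.71 for Mid1ip1, 1.52 for Hdhd3, 1.39 for Nat8, 1.34 for Id3 and 1.33 for Srebf1, and -4.25 for Mascrna, -2.48 for Lpin1, -2.07 for Plk3, -1.80 for Gm15441 and -1.72 for Slc7a2. Mascrna and Mir7024 are short RNAs that were at 0 RPKM in every fed lean mouse, and Mir7024 rested on 1 read in each unfed lean mouse. Mascrna was at 2.64, 0.943 and 3.10 RPKM in the unfed lean mice. With 1 RPKM standing for 16.7 to 26.3 reads per kilobase, such levels of a short RNA rest on few reads as well. Vehicle-injected mice were handled and sequenced as another experiment, which cannot be told apart from the difference in treatment.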

How the results depend on the processing

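No gene called in lean mice changed sign under any of the settings tried, but the number of calls depended on them. Against 800 higher and 369 lower genes, 474 were higher after median-ratio scaling, 461 after quantile normalization and 520 with no filter on low values. With the replicate number as a block 286 genes were higher and 191 lower. The labels do not pair mice by this number, and the deviations of same-numbered mice had correlations of 0.11, 0.06 and -0.02. Whether same-numbered mice shared a batch was not tested. Leaving out 1 lean library gave 267 to 468 higher and 148 to 247 lower genes, the fewest higher without fed replicate 2 and the fewest lower without unfed replicate 2. At an adjusted p under 0.05 there were 1841 and 832 calls, and at 0.001 there were 113 and 85. The 85 differences from obese mice became 28 with no filter, 15 with the block and 27 to 73 without 1 lean library, and the 91 from vehicle-injected mice became 177 with the block and 21 to 84 without 1 lean library. The lowest counts were without unfed replicate 3. Fewer libraries enter these fits, and the cause of the other changes was not tested.

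The sign turned only in named genes near 0 that were not called. With median-ratio scaling Npm1 was at -0.05 and Atp5b at -0.03. After quantile normalization Npm1 was at -0.05 and Alb at 0.00. Without 1 lean library at a time, Npm1 ranged from -0.00 to 0.08, Slc10a1 from -0.05 to 0.24, Atp5b from -0.01 to 0.12 and Fabp2 from -0.02 to 0.46. Below 0 as reported, Hpd ranged from -0.15 to 0.04, Cps1 from -0.22 to 0.04, Cyp2e1 from -0.28 to 0.06, Alb from -0.11 to 0.03 and Hbb-b1 from -0.70 to 0.23. Genes under 1 RPKM rest on few reads at this depth.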

Other observations

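The following genes were picked after their values were seen, from no fixed list, and say nothing of the other members of their families. Actb, cytoplasmic actin, was at 56.4, 65.9 and 67.4 RPKM in unfed and at 196, 146 and 168 RPKM in fed lean mice (log2 fold change 1.41, adjusted p = 0.000729, limma), and the tubulin gene Tuba1c at 2.50, 2.83 and 2.09 against 11, 9.61 and 14.3 RPKM (2.02). Tubb2a, another tubulin gene, changed by 1.36. Actb is often used as a reference gene, and its groups did not overlap.

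Among the mitochondrial carrier genes picked in this way, Slc25a47, a carrier found mainly in liver, was at 632, 446 and 454 RPKM in unfed and at 180, 202 and 172 RPKM in fed lean mice (-1.45). Slc25a25 (-1.39), Slc25a32 (-1.32), Slc25a33 (-1.27), Slc25a51 (-1.17) and Slc25a34 (-1.16) fell as well, and Slc25a25 changed by 0.83 in obese mice (difference -2.22). Arrdc2, an arrestin-domain gene, changed by -2.16, in the opposite direction from its relative Arrdc3 (2.27).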
